A study of Saccharomyces cerevisiae with 30 samples.

Results

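The proteasome genes of budding yeast were taken as the 35 open reading frames whose gene name in the authors' annotation is PRE, PUP, RPN or RPT followed by a number, or SCL1 or SEM1, out of 5904 named open reading frames. The rule uses names and no measured value. Of the 35, 33 encode subunits: 7 of the alpha ring and 7 of the beta ring of the proteolytic core, 6 ATPases and 4 other proteins of the base, and 9 proteins of the lid. The other 2 share the name but are no subunits. RPN4 encodes a transcription factor of proteasome genes and RPN14 a chaperone that helps to assemble the base, and both are given apart from the subunits. The authors' table puts 34 of the 35 in its Cytonuclear class and RPN2 in a class named Exception, and it lists no position of a first signal for any of them.

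The proteasome degrades proteins that carry ubiquitin. Its core is a barrel in which outer alpha rings gate the entrance and inner beta rings hold the proteolytic sites, and its regulatory particle has a base, whose ATPases unfold substrates, and a lid, whose RPN11 removes ubiquitin. The subunits are needed in fixed proportion, are made in the cytosol and carry no signal sequence. In yeast their genes share a promoter element bound by the Rpn4 protein, which is itself a short-lived substrate of the proteasome, so that output and demand are linked in a feedback loop.

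The study sampled messages and ribosomes that were soluble, bound to membranes, or pulled down with the signal recognition particle (SRP), the factor that binds nascent secretory and membrane proteins. Cells grew in rich medium (YPD) to mid-log phase. Strain BY4741 with the genotype srp72::SRP72-TAP-HIS3MX, in which the SRP subunit SRP72 carries a tandem affinity tag, gave footprints of soluble, membrane and SRP72-bound polysomes, with 2 libraries each and no drug. The same strain gave 4 single footprint libraries from cultures harvested in 100 µg/mL cycloheximide (CHX, which stalls elongating ribosomes), and 6 single poly(A) RNA libraries from soluble, membrane and SRP72-bound material of lysates with CHX or with puromycin, which releases nascent chains. Strain W303, and strain CY2522 with the prt1-1 allele, a temperature-sensitive mutation of a subunit of the initiation factor eIF3, gave soluble and membrane poly(A) RNA at 25 °C or after 1 h at 37 °C, with 1 library for each of the 8 combinations. Whether the 2 libraries of a polysome fraction came from separate cultures is not stated in the labels, so p-values measure the spread between these libraries, which may be technical.

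The 24 libraries held 16.058 to 34.662 M counts for footprints and 3.139 to 34.3 M for RNA. The 35 genes took between 0.194% and 1.054% of a library. The lowest count of any of them was 53, for RPN14 in the membrane RNA of W303 at 25 °C, and every subunit had more counts than that in every library. In each fraction the 2 polysome libraries differed by more than sampling noise, with a chi-square of 15.3 to 89.5 per degree of freedom. Levels are CPM, counts scaled by TMM library sizes. These sizes were set over the 6 polysome libraries for no-drug footprints and over all 10 footprint libraries for CHX-culture footprints. CPM of these 2 sets are therefore on different scales. For RNA they were set over all 14 RNA libraries. Levels are relative, so fewer copies of a message per cell and more of all the others cannot be told apart. As a check of the fractions, 8 of 8 genes of membrane and secretory proteins were called higher in membrane than in soluble polysome footprints, with log2 fold changes of 6.0 to 7.40.

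In the soluble fraction the subunit genes sat in a narrow band of high density, and the core had the highest median. Footprint density, in CPM per 1000 codons of soluble polysomes (mean of 2 libraries), had a median of 667 over the 14 core subunits and ran from 529 ± 20.3 (SD, n = 2) for PRE10 of the alpha ring to 750 ± 23.7 for PRE5 of the same ring. The coefficient of variation over these 14 genes was 13.0%. In the beta ring PRE2, the chymotrypsin-like site, was lowest at 553 ± 30.5 and PRE3, the caspase-like site, highest at 721 ± 50.1, with PUP1, the trypsin-like site, at 562 ± 36.6. SCL1, the first alpha subunit, had 733 ± 23.4.

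The regulatory particle was lower and more spread. The 6 ATPases had a median of 362, from 312 ± 8.47 for RPT5 to 416 ± 13.6 for RPT6. In the lid the density ran from 391 ± 4.50 for RPN7 to 768 ± 12.2 for SEM1, an acidic protein and the shortest of the 35 at 89 codons, and the lid's deubiquitinase RPN11 had 402 ± 14.2. The large scaffold proteins RPN2 and RPN1 were the lowest of the base non-ATPases, at 287 ± 8.97 and 332 ± 26.3, and RPN13, a ubiquitin receptor, was the highest at 513 ± 11.4. Over all 33 subunits the densest was 2.68-fold above the least dense. The largest SD was 7.93% of its mean, so the gap between core and ATPases, which do not overlap, is wider than the spread between libraries. Length differed with place as well: core genes had 198 to 288 codons and ATPases 405 to 467. Outside the core, RPN12 with 274 codons had 581.5, within the range of the core, and RPN10 with 268 had 474.3, below it. The part of length in the gap was not tested.

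The messages differed less by role. In the soluble RNA of the CHX lysate, the density of core subunits ran from 608 for PRE8 to 943 for PRE2 with a coefficient of variation of 12.5%, and that of the ATPases from 468 for RPT5 to 682 for RPT1, so these groups overlapped. RPN4 and RPN14 stood well below. RPN4 had a footprint density of 110 ± 15.2 and an mRNA density of 248, and RPN14 had 37.7 ± 3.11 and 73.2, against medians over all genes of 63.0 and 146.

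Set against mRNA, the subunits carried more footprints in the soluble fraction than the median gene of all classes. The log2 ratio of soluble footprint CPM to soluble mRNA CPM had a median of −0.39 over the subunits and −1.07 over the 4803 genes with at least 100 counts in each library, and 83.8% of genes lay below the subunit median. RPN9 and RPN12, both of the lid, were highest at −0.01. RPN2 was lowest at −1.16, below RPN1 at −0.80 and beside RPN4 at −1.17. This ratio sets footprints of cells without drug against RNA from a CHX lysate, so it ranks genes and is not an absolute efficiency. Its reference also holds membrane and secretory genes. Their check genes had membrane over soluble medians of 6.65 in footprints and 3.39 in mRNA of the CHX lysate. Their part in the median over all genes was not tested, and no Cytonuclear reference was computed.

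**Figure D1:**
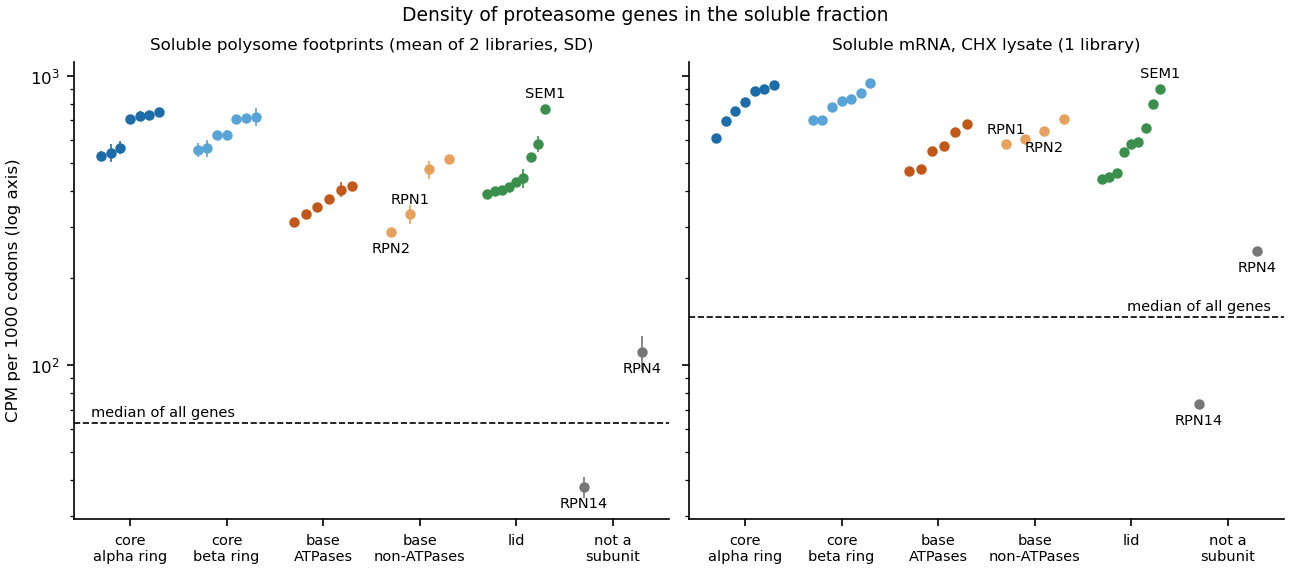
Density in the soluble fraction, in CPM per 1000 codons on a log axis, for footprints (left, mean of 2 libraries with SD) and mRNA of the CHX lysate (right, 1 library), by place in the proteasome; dashed lines are the medians over all genes, 63.0 and 146. The 14 core subunits lie between 529 and 750 in footprints, above the 6 ATPases at 312 to 416, while RPN14 lies below the median of all genes in both panels. The core genes are also shorter than those of the ATPases.

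Most proteasome genes had fewer footprints on membrane polysomes than on soluble ones, and RPN2 went clearly the other way. With edgeR (quasi-likelihood test, Benjamini-Hochberg adjusted p over 5393 genes), 26 of the 35 were lower on membranes and 2 were higher. Over all genes 34.9% were called lower and 34.2% higher. The median log2 fold change of the 35 was −0.35, against −0.07 over all genes tested and −0.21 over the 3385 other Cytonuclear genes, of which 45.0% were called lower and 15.5% higher. The balance of calls depends on scaling: with library sizes set by the total of the Cytonuclear class, 15 were lower and 3 higher, as the median over all genes moved from −0.07 to 0.10. Of all 5393 genes 1046 were then called lower and 2180 higher.

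Both rings of the core were lower throughout. SCL1 had 180.5 and 188.8 CPM in soluble and 131.4 and 133.1 in membrane polysomes, so the fractions did not overlap. The log2 fold change was −0.48 ± 0.08 (SE, adjusted p = 0.000964, edgeR). All 7 alpha subunits were called lower, from −0.54 for PRE5 to −0.31 for PRE10. All 7 beta subunits were called lower as well, from −0.52 for PRE3 to −0.35 for PRE2. PUP1 had 139.8 and 153.3 CPM in soluble and 105.2 and 114.8 in membrane polysomes, and a log2 fold change of −0.41 ± 0.09 (adjusted p = 0.00364, edgeR). PRE2 went from 152.4 and 164.8 to 119.6 and 129.9, with an adjusted p of 0.00664 by the same edgeR test. Under Cytonuclear scaling PRE2, PRE8, PRE10 and PUP1 lost the call, with the same direction. Without replicate 2 of soluble polysomes PRE2, PRE8 and PRE10 lost it (adjusted p 0.0569, 0.104 and 0.0662), and PRE8 also without replicate 1 of membrane polysomes (0.0734).

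The ATPases stood nearer to no change. Only RPT6 was called, with 164.5 and 172.2 CPM in soluble against 135.4 and 140.1 in membrane polysomes and a log2 fold change of −0.29 ± 0.08 (adjusted p = 0.0120, edgeR). That call was lost without replicate 2 of soluble polysomes (−0.25, adjusted p = 0.0827), without replicate 1 of membrane polysomes (−0.26, 0.059) and with Cytonuclear scaling (−0.12, 0.177). The other 5 were not called. They ran from −0.18 ± 0.10 for RPT1 to 0.11 ± 0.09 for RPT2, the ATPase that opens the gate of the core, which had 159.6 and 167.2 CPM in soluble and 171.4 and 181.3 in membrane polysomes and an adjusted p of 0.285 by edgeR. For all 6 ATPases the 2 libraries of each fraction lay on separate sides, in the direction of the fold change. For RPT2 that direction was upward. Every other subunit separated on membranes as well, and the share of all genes that did so was not computed. With 2 libraries a fraction, the separation is thus no evidence of a change in the 5 ATPases that were not called. RPT2 was called higher with Cytonuclear scaling (0.28, adjusted p = 0.0344), and RPT1 lower without replicate 2 of membrane polysomes (−0.28, adjusted p = 0.0496).

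In the lid 8 of 9 were called lower. SEM1 was lowest of all 35, with 67.63 and 69.16 CPM in soluble and 38.83 and 45.42 in membrane polysomes and a log2 fold change of −0.70 ± 0.09 (adjusted p = 0.000166, edgeR). RPN11 had 119.9 and 126.1 against 94.26 and 102.3, a log2 fold change of −0.32 ± 0.08 (adjusted p = 0.00627, edgeR). RPN3, the longest lid gene, was not called at −0.15 ± 0.08 (adjusted p = 0.140). RPN7 was called at −0.23 with an adjusted p of 0.0375 by edgeR, a call lost when any 1 of the 4 libraries was left out (adjusted p 0.0684 to 0.148) and by DESeq2 (0.0845). RPN5, a lid scaffold at −0.25, lost its call without either soluble library or without replicate 1 of membrane polysomes (adjusted p 0.0647 to 0.137), and RPN9 without replicate 1 of soluble or replicate 2 of membrane polysomes (0.111 and 0.051). With Cytonuclear scaling RPN5, RPN7, RPN9 and RPN11 lost the call.

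The base non-ATPases split. RPN10, a ubiquitin receptor, and RPN13 were called lower at −0.37 ± 0.09 and −0.53 ± 0.11, and RPN10 lost the call with Cytonuclear scaling. RPN1, which docks ubiquitin carriers, had 311.2 and 348.1 CPM in soluble and 409.7 and 426.8 in membrane polysomes, a log2 fold change of 0.34 ± 0.10 (adjusted p = 0.0124, edgeR). Without replicate 1 of soluble polysomes it was 0.27 with an adjusted p of 0.112, and without replicate 2 of membrane polysomes 0.32 with 0.0518, and it was still called without either of the other 2 libraries (0.43 and 0.37). RPN2 (YIL075C, on chromosome IX at 217863 to 220700 of the R64 assembly per RefSeq) encodes the other large scaffold of the base. It had 265.4 and 277.4 CPM in soluble and 699.9 and 697.0 in membrane polysomes. Both membrane libraries were far above both soluble ones, a 2.57-fold difference, and the log2 fold change was 1.36 ± 0.09 (adjusted p = 2.76e-06, edgeR).

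RPN2 had no partner among the subunits at that size, since RPN1, the next highest, was lower by about 1 on the log2 scale. Of 403 Cytonuclear genes of 800 to 1200 codons, a range that holds RPN2 with 945 and RPN1 with 993, 94.3% had a lower fold change on membranes than RPN2 and 65.0% a lower one than RPN1. The difference between RPN2 and the other subunits was not tested. The check genes of membrane proteins had a median of 6.65, so RPN2 stood between them and the rest of the proteasome. No other annotated gene overlaps RPN2 or any of the 35 in the RefSeq table.

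SRP72-bound polysomes also held few proteasome footprints. Against the same soluble libraries, 32 of the 35 were called lower and 1 higher, where 38.9% of all genes were called lower and 39.0% higher by edgeR. The median log2 fold change of the 35 was −0.67, against −0.04 over all genes and −0.28 over the other Cytonuclear genes, of which 22.3% were called higher. With Cytonuclear scaling 16 were lower and 3 higher, and the median over all genes moved from −0.04 to 0.40. Of all 5393 genes 843 were then called lower and 2918 higher. Since both fractions were compared with the same 2 soluble libraries, the 2 sets of fold changes are not independent and stand here side by side only.

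All 14 core subunits were called lower in SRP72-bound polysomes. SCL1 had 112.3 and 120.7 CPM there, PUP1 88.60 and 95.06 and PRE2 103.2 and 102.4, all below their soluble libraries. Their log2 fold changes were −0.67 ± 0.08, −0.68 ± 0.09 and −0.63 ± 0.09. The lowest were PRE5 of the alpha ring at −0.81 and PRE7 of the beta ring at −0.89, and the highest were PRE8 at −0.61 and PUP3 at −0.48. With Cytonuclear scaling SCL1, PRE8, PUP1, PUP3 and PRE2 lost the call with the same direction. All 6 ATPases, of which 1 was called on membranes, were called lower here, from −0.68 ± 0.08 for RPT6 (108.5 and 102.2 CPM) to −0.41 ± 0.09 for RPT2 (117.3 and 128.9 CPM). With Cytonuclear scaling RPT1, RPT4 and RPT5 lost the call and RPT2 was at 0.03.

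All 9 lid genes were called lower too. RPN12, a lid protein that joins last in assembly, was the lowest of the 35, with 166.7 and 151.9 CPM in soluble and 82.33 and 85.00 in SRP72-bound polysomes, a log2 fold change of −0.93 ± 0.09 (adjusted p = 2.2e-05, edgeR). RPN11 was at −0.77 ± 0.08 with 72.87 and 71.48 CPM, SEM1 at −0.87 ± 0.09 with 37.43 and 37.18, and RPN3 was the highest at −0.47 ± 0.08. RPN3, RPN5, RPN7 and RPN9 lost the call with Cytonuclear scaling. RPN13 was the lowest base non-ATPase at −0.68 ± 0.12, and RPN10 was at −0.57 ± 0.09. Both lost the call with Cytonuclear scaling (−0.23 and −0.13, adjusted p = 0.15 and 0.181).

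RPN2 was again the exception, with 456.3 and 419.7 CPM in SRP72-bound polysomes, above both soluble libraries. Its log2 fold change was 0.69 ± 0.09 (adjusted p = 0.000165, edgeR), and 74.2% of Cytonuclear genes of its length range lay below it. RPN1 had 391.3 and 369.4 CPM, also above both soluble libraries, but was not called at 0.21 ± 0.10 (adjusted p = 0.0782, edgeR). It was called at 0.26 by DESeq2 (adjusted p = 0.0246) and with RLE (0.0355), and at 0.65 with Cytonuclear scaling (0.000244). Below RPN1 lay 38.2% of Cytonuclear genes of that length range.

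Longer genes had higher fold changes. Over the 35 genes the fold change on membranes correlated with the log2 length of the open reading frame (Pearson r = 0.792, Spearman rho = 0.877, n = 35 genes, a description since genes of 1 library pair are not independent). Without RPN1 and RPN2, left out after their values were seen, r was 0.838 and rho 0.854. The 3385 other Cytonuclear genes had the same trend, with r = 0.626 and rho = 0.807. For SRP72-bound polysomes the 35 genes had r = 0.736 and rho = 0.679 (0.573 and 0.617 without RPN1 and RPN2), and the other Cytonuclear genes r = 0.597 and rho = 0.720.

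Against genes of like length the membrane and SRP72-bound fractions differed in where the subunits lay. On membranes 19 of the 33 subunits were below and 14 above the Cytonuclear median of their length range, with a median difference of −0.01. In SRP72-bound polysomes 30 were below and 3 above, with a median difference of −0.18. Cytonuclear genes of 250 to 350 codons, the range of 13 of the 35, had a median of −0.36 on membranes and −0.51 in SRP72-bound polysomes, and those 13 had −0.43 and −0.70. Between 350 and 500 codons the Cytonuclear medians were −0.21 and −0.32, and the medians of 11 of the 35 were −0.23 and −0.57.

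**Figure D2:**
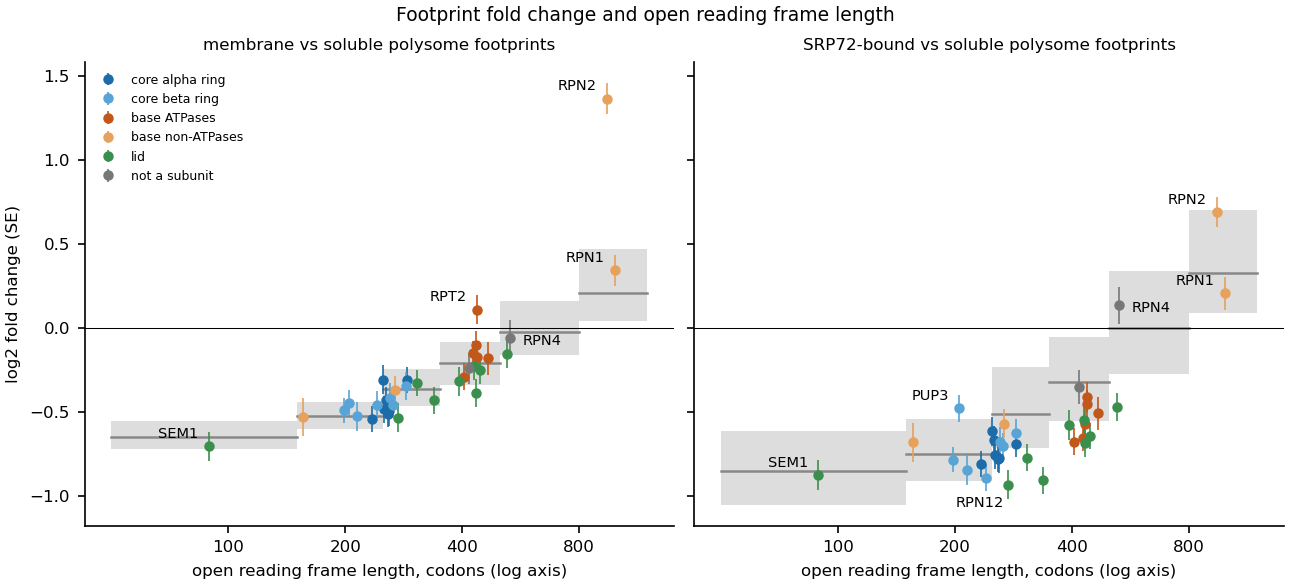
Log2 fold change of membrane (left) and SRP72-bound (right) over soluble polysome footprints against open reading frame length in codons (log axis), with SE from 2 libraries a fraction; points are the 35 genes coloured by place in the proteasome, grey lines and boxes the median and quartiles of other Cytonuclear genes in 6 length ranges. On membranes most genes lie near the grey medians, and RPN2 at 1.36 is furthest above. RPT2 is also above its box, and some genes, such as RPN6 and RPN12, are below theirs. In SRP72-bound polysomes most genes lie below the medians.

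The footprint libraries from CHX cultures, 1 for each fraction, can be given as values only. The membrane library held all membrane ribosomes and was set against all soluble ribosomes. The subunits there lay close together around a median log2 ratio of −0.12, between −0.20 for PRE4 and RPN13 and 0.37 for RPN2, while the median over all genes was −0.05. RPN2 had 489.5 CPM on membranes and 377.4 in soluble ribosomes. SCL1 was at −0.13, PUP1 at −0.16, PRE2 at −0.13, RPT6 at −0.05, RPN1 at −0.06, RPN11 at −0.09 and SEM1 at −0.16. By role the highest and lowest were PRE9 at −0.07 and PRE5 at −0.16 in the alpha ring, PUP3 at −0.05 and PRE4 in the beta ring, RPT2 at 0.05 and RPT1 at −0.14 among ATPases, and RPN3 at −0.05 and SEM1 in the lid.

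SRP72-bound polysomes of the CHX culture had a subunit median of −0.62 against soluble polysomes of the same culture. SEM1 was lowest at −1.29, with 28.07 against 69.24 CPM, and RPN2 highest at 0.73, with 519.3 against 312.6. RPN1 was at 0.46. RPN9, a lid protein, had 196.9 CPM against 188.1 and a log2 ratio of 0.07, higher than every other subunit but RPN2 and RPN1, whereas without drug it was called lower at −0.57 ± 0.09. SCL1 was at −0.76, PUP1 at −0.66, PRE2 at −0.62, RPT6 at −0.70 and RPN11 at −0.67. The range ran from −0.99 for PRE5 to −0.61 for PRE8 in the alpha ring, from −0.98 for PRE1 to −0.50 for PUP3 in the beta ring, and from RPT6 to −0.37 for RPT4 and RPT5 among ATPases.

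All soluble ribosomes and soluble polysomes of that culture share a source and differ in whether ribosomes outside polysomes were kept. The subunits had a median log2 ratio of −0.16, from −0.37 for RPN13 and PRE1 to 0.33 for RPN1, with RPN2 at 0.27. These ratios also correlated with log2 length (r = 0.825, n = 35 genes, a description). The short core genes were lowest, with role medians of −0.21 for the alpha ring and −0.23 for the beta ring, and the ATPases were at −0.02.

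In the mRNA of the CHX lysate, RPN2 was again the subunit with the highest ratio to the soluble fraction. There the subunit median of membrane over soluble mRNA was −0.29, against −0.07 over all genes. RPN2 had 606.3 CPM in soluble and 1083 in membrane mRNA, a log2 ratio of 0.84 (95% exact counting interval 0.81 to 0.87, which covers counting error only, here and below). PUP1 was lowest at −0.91 with 182.9 and 97.07 CPM. RPN1, which was higher on membranes in footprints, was at −0.58 here with 574.2 and 383.7 CPM. SCL1 was at −0.68, RPT6 at −0.29, RPN11 at −0.20, PRE2 at −0.02 and SEM1 at 0.01. In the lid the lowest was RPN7 at −0.68, among ATPases RPT5 at −0.70 and the highest RPT2 at −0.27, and among base non-ATPases the lowest was RPN10 at −0.78.

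In the puromycin lysate the subunit median was −0.12, against 0.01 over all genes, with an interquartile range of 0.39 that was about that of the CHX lysate (0.40). RPN2 was at 0.21 with 716.5 CPM in soluble and 829.4 in membrane mRNA. The check genes of membrane proteins went from a median of 3.39 in the CHX lysate to 1.54. SEM1 was now highest at 0.63 with 71.24 and 110.6 CPM, and RPN1 lowest at −0.69 with 688.4 and 427.9. SCL1 was at −0.38, PUP1 at −0.25, PRE2 at 0.22, RPT6 at −0.29 and RPN11 at −0.30. PUP2 at 0.24, PRE2 and RPT2 at 0.06 were the highest of their roles and PUP3 at −0.36, RPT3 at −0.54 and RPN6 at −0.42 the lowest, besides SCL1 and RPN1.

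SRP72-bound mRNA was the fraction poorest in proteasome messages. In the CHX lysate the 35 genes took 0.194% of its counts and 0.8323% of those of soluble mRNA. The subunit median was −1.31, where the median was −0.07 over all genes and −0.34 over other Cytonuclear genes, and 31 of the 33 subunits were below the Cytonuclear median of their length range, by a median of 0.66. RPN12 was lowest at −1.81, with 160.9 CPM in soluble and 45.42 in SRP72-bound mRNA. RPN2 was highest at 0.73, with 606.3 and 1004 CPM, and the second, PRE6 of the alpha ring, was at −0.64. SCL1 was at −1.24, PUP1 at −1.53, PRE2 at −1.12, RPT6 at −1.50, RPN1 at −0.65, RPN11 and SEM1 at −1.25. PRE5 at −1.64, PRE3 at −1.78 and RPN13 at −1.62 were the lowest of their roles, and RPT4 at −0.89 and RPN3 at −1.04 the highest of ATPases and lid.

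In the puromycin lysate the subunit median of SRP72-bound mRNA was −0.99 and the spread was wider. RPN13 was at −2.18 with 85.58 and 18.56 CPM and RPN2 at 0.67 with 716.5 and 1140. A few messages came near or above the soluble level, with RPT5 at 0.26 (211.3 and 252.6 CPM), RPN5 at 0.01, RPT4 at −0.04 and RPN1 at −0.07. The core did not share this, with SCL1 at −1.24, PUP1 at −1.09, PRE2 at −0.62, the alpha ring between −1.38 for PRE9 and −0.83 for PRE10, and PUP3 lowest of the beta ring at −1.75. RPT6 was at −1.36, RPN11 at −0.73 and SEM1, lowest of the lid, at −1.57.

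**Figure D3:**
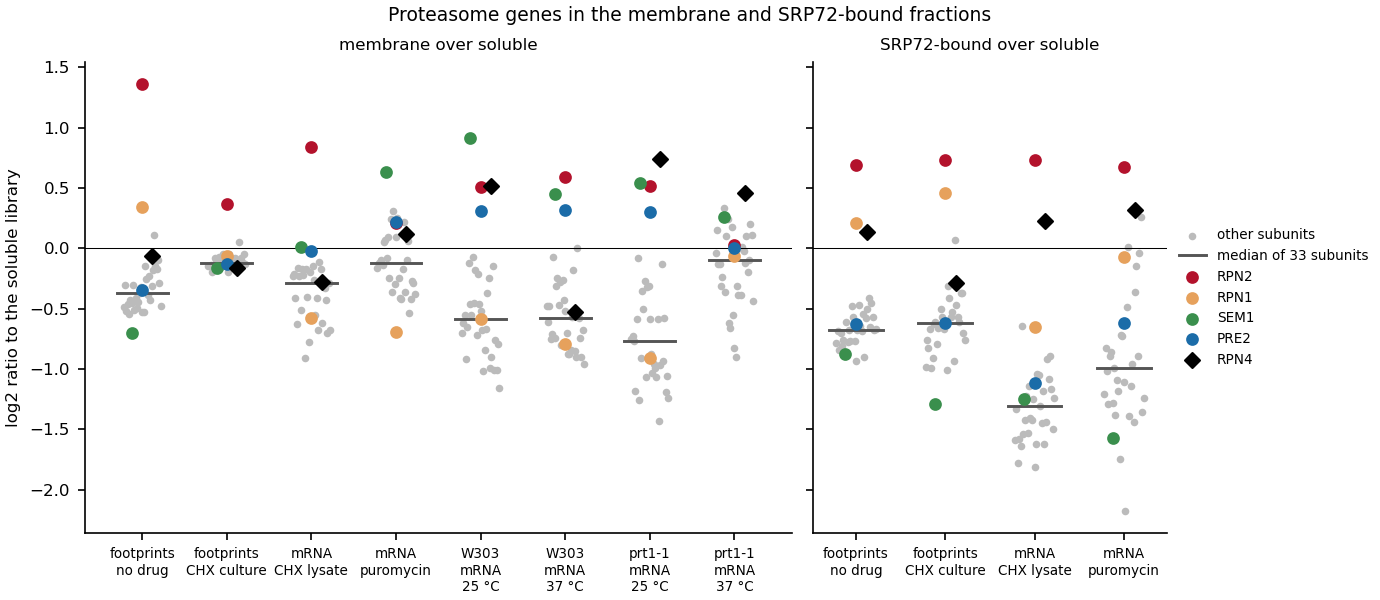
Log2 ratio of membrane (left) and SRP72-bound (right) over soluble material for the 33 subunits and RPN4 in 12 comparisons; the no-drug footprints are fold changes from 2 libraries a fraction, all others ratios of single libraries, and bars mark the subunit median. RPN2 is the highest subunit in 8 of the 12. SEM1 is the lowest in no-drug membrane and CHX-culture SRP72-bound footprints, and the highest in several membrane mRNA comparisons.

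In W303 and prt1-1 cells membrane and soluble mRNA could be compared at both temperatures. In W303 the subunit median of membrane over soluble mRNA was −0.59 at 25 °C and −0.58 at 37 °C. SEM1 and RPN2 lay apart from the rest at 25 °C, at 0.91 (interval 0.74 to 1.08) and 0.51 (0.45 to 0.58), and PRE2 was at 0.31. At 37 °C RPN2 was at 0.59, SEM1 at 0.45 and PRE2 at 0.32. At the other end SCL1 was the lowest subunit at both, with −1.16 and −0.96. PUP1 was at −0.45 and −0.47, RPT6 at −0.79 and −0.68, RPN1 at −0.59 and −0.79, and RPN11 at −0.46 and −0.43. Of the ATPases RPT2 was highest at −0.15 and 0.00, with RPT3 and RPT5 lowest at −1.01 at 25 °C and RPT1 and RPT5 at −0.90 at 37 °C.

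In prt1-1 the median went from −0.77 at 25 °C to −0.10 at 37 °C. At 25 °C the ends were RPN9 at −1.43 and SEM1 at 0.54, with RPN2 at 0.52, PRE2 at 0.30, SCL1 at −1.24, PUP1 at −0.50, RPT6 at −1.06, RPN1 at −0.91 and RPN11 at −0.31. At 37 °C RPN2 was at 0.03, with 384.3 CPM in soluble and 393.2 in membrane mRNA, and PRE2 at 0.00. The ends were then RPN13 at −0.90 and PRE7 at 0.33, with SCL1 at −0.44, PUP1 at 0.24, RPT6 at 0.11, RPN1 at −0.06, RPN11 at −0.55 and SEM1 at 0.26. The check genes of membrane proteins moved in the same comparison from a median of 3.30 to 0.05, so the labelled membrane library at 37 °C no longer held more of them than the soluble one. Whether that bears on RPN2 was not tested.

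The heat shift of W303 left the subunit messages nearly where they were and the message of their transcription factor stood far above them. In soluble mRNA none of the 33 subunits was past 1.5-fold in either direction. The median was −0.06 and the range from −0.30 for RPN2 and RPT1 to 0.34 for SEM1, against a median over all genes of 0.10. RPN4 went from 113.8 to 278.9 CPM (1231 to 2964 counts), a log2 ratio of 1.29 (interval 1.2 to 1.39), above 93.1% of genes. RPN14 went from 26.45 to 41.87 CPM, at 0.65 (0.45 to 0.88). Those 2 were the only ones of the 35 past 1.5-fold higher, and 0 were past it lower, where 23.1% of all genes were past it higher and 15.1% lower. With other scalings 6 (library totals), 9 (Cytonuclear) and 1 (RLE) of the 35 were past it higher, and subunits were among them with the former 2. Of all 5483 genes, 2457, 2775 and 1128 were past it higher under these scalings. With 1 library at each temperature there is no replicate check and no p-value. The 8 heat shock genes used as a check were all past 1.5-fold, with a median of 3.14.

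By role the medians in soluble mRNA of W303 ran from 0.06 for the alpha ring to −0.16 for the ATPases. SCL1 was at 0.06, PUP1 at −0.18, PRE2 at −0.16, RPT6 at −0.18, RPN1 at −0.06 and RPN11 at 0.03. The ends were PRE10 at −0.09 and PRE5 at 0.23 in the alpha ring, PRE4 at −0.19 and PRE7 at 0.20 in the beta ring, RPT1 and RPT3 at −0.09 among ATPases, and RPN9 at −0.27 and SEM1 in the lid. The sign of the median depends on scaling: it was −0.12 with RLE, 0.36 with CPM of library totals and 0.44 with Cytonuclear scaling. Under each of these it was 0.15 to 0.16 below the median over all genes, as scaling moves all genes nearly alike.

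In membrane mRNA of W303, which was sequenced less deeply, the subunits again lay near the median gene. The subunit median was −0.08 and that of all genes −0.03, with the subunits between −0.30 for RPT1 and 0.34 for RPT3. SCL1 was at 0.25, PUP1 at −0.20, PRE2 at −0.14, RPT6 at −0.08, RPN1 at −0.27, RPN2 at −0.23, RPN11 at 0.07 and SEM1 at −0.12. RPN14 was at 0.68 (interval 0.24 to 1.17, from 53 and 161 counts) and was the only one of the 35 past 1.5-fold higher, with 0 lower, against 14.6% and 15.1% of all genes. RPN4 was at 0.24 (0.08 to 0.39), below the threshold, with 163.9 and 193.1 CPM. The 8 heat shock check genes were all past 1.5-fold higher, with a median of 1.79. At 25 °C all 8 were also past it in membrane over soluble RNA of W303, with a median of 1.72, where RPN4 was at 0.52. Whether that level at 25 °C bears on the ratio of RPN4 was not tested.

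In prt1-1 the same shift put every subunit message below the median gene of the soluble fraction. The subunit median was −0.79, all 33 lay below the median over all genes of 0.23, and all 33 lay below the Cytonuclear median of their length range. Past 1.5-fold lower were 21 of the 35 and past it higher 1, RPN14, where 25.7% of all genes were past it lower and 39.1% higher. PRE1 of the beta ring was lowest, from 146.1 CPM at 25 °C to 48.87 at 37 °C, a log2 ratio of −1.57. RPT3 was the highest subunit, from 187.2 to 153.2 CPM, at −0.29.

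The alpha ring was the lowest group and the lid the highest. The alpha ring had a median of −0.95, the base non-ATPases −0.82, the beta ring −0.79, the ATPases −0.76 and the lid −0.51. SCL1 went from 224.4 to 105.7 CPM (log2 ratio −1.08), RPN1 from 641.1 to 276.8 (−1.21) and RPN11 from 180.4 to 82.63 (−1.12). PUP1 was at −0.79, RPT6 at −0.97, RPN2 at −0.69 and SEM1 at −0.93. Less affected were PRE6 at −0.36, PRE2 at −0.34, RPN13 at −0.43 and RPN5 and RPN6 at −0.32, the highest of their roles, and RPT5 at −1.21 was the lowest ATPase.

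RPN4 did not show the ratio it had in W303. The heat shock check genes had a median of 2.10 here, with 7 past 1.5-fold higher and BTN2 lower at −1.85. RPN4 went from 134.6 to 149.0 CPM, a log2 ratio of 0.15 (interval 0.05 to 0.24), near the median over all genes. RPN14 went from 35.14 to 53.31 CPM, at 0.59 (0.43 to 0.78). The difference between the strains was not tested, since each has 1 library per condition. At 25 °C the subunits of the 2 strains lay close, with a median of −0.12 for prt1-1 over W303 in soluble mRNA (0.05 over all genes). The ends were RPN9 at −0.36 and RPN13 at 0.36. SCL1 was at −0.13, PUP1 at −0.27, PRE2 at −0.09, RPT6 at −0.19, RPN1 at −0.05, RPN11 at 0.18, SEM1 at 0.09, RPN4 at 0.24 and RPN14 at 0.40. Of the 8 heat shock check genes 4 were past 1.5-fold higher in prt1-1 and 1 lower, with a median of 0.55.

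The size of the prt1-1 shift depends on scaling. Its distance from the median gene hardly can, since a change of scaling moves all genes by nearly the same amount. That distance is thus no check of the result. The median of the 35 was −0.78 with TMM, −0.84 with RLE, −0.19 with CPM of library totals and 0.06 with Cytonuclear scaling, and it was 1.00 to 1.01 below the median over all genes in each. By the last 2 scalings 4 and 1 of the 35 were past 1.5-fold lower, and of all 5498 genes 716 and 490 were.

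**Figure D4:**
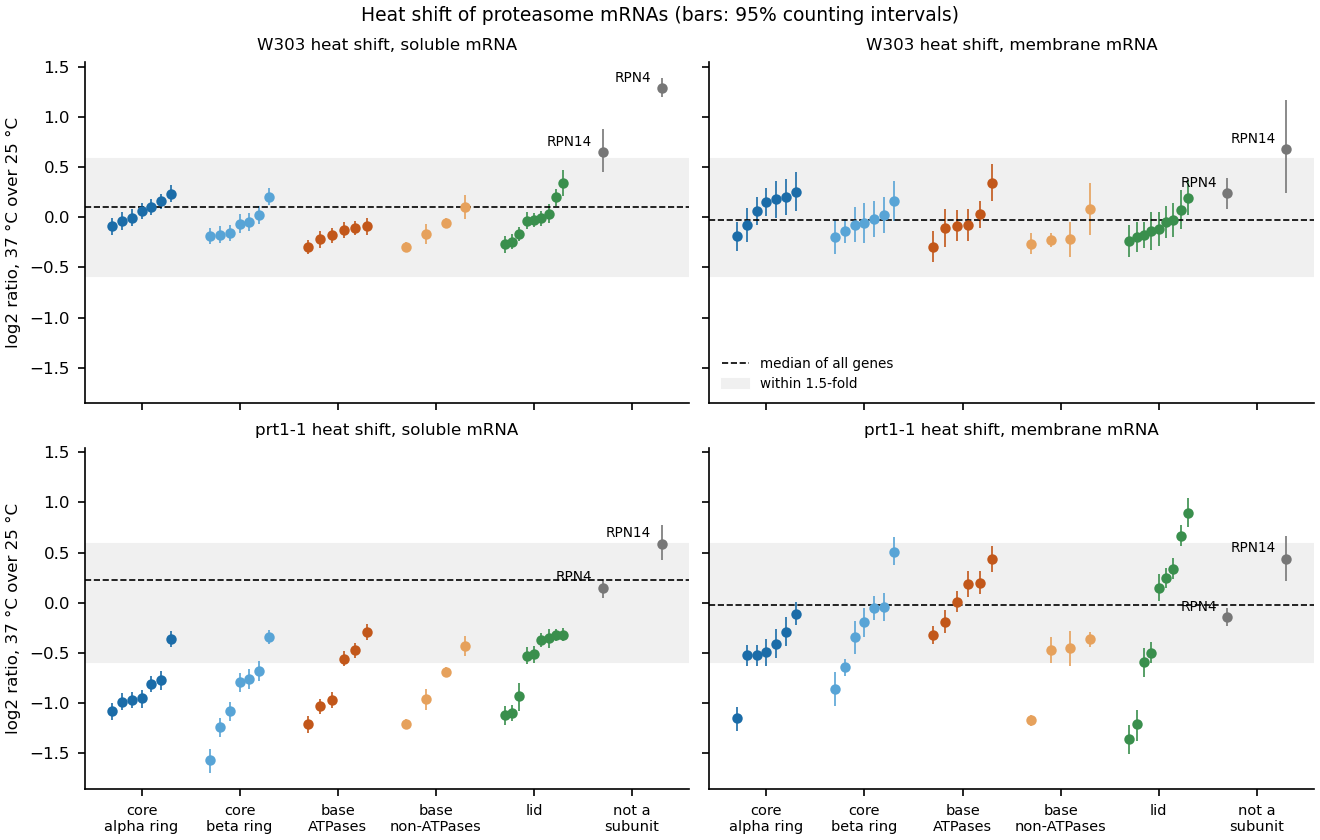
Log2 ratio of mRNA at 37 °C over 25 °C for the 35 genes by place in the proteasome, with 95% exact counting intervals, in soluble (left) and membrane (right) mRNA of W303 (top) and prt1-1 (bottom), 1 library per condition; the dashed line is the median over all genes and the grey band marks 1.5-fold. In W303 all 33 subunits lie in the band, and in soluble mRNA of prt1-1 all 33 lie below the dashed line.

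Membrane mRNA of prt1-1 was scattered. The subunit median was −0.32, against −0.02 over all genes, and 7 of the 35 were past 1.5-fold lower and 2 higher, where 28.2% and 28.4% of all genes were. The balance turned with library totals, where 4 were lower and 10 higher and the median of the 35 was 0.19, and was 5 to 5 with Cytonuclear scaling. Of all 5390 genes 874 were lower and 2462 higher with library totals, and 1219 and 1904 with Cytonuclear scaling. Relative to the median over all genes, that of the 35 was −0.27 under both, as scaling moves all genes nearly alike. RPN11 was lowest at −1.36, from 145.5 to 56.45 CPM, followed by SEM1 at −1.21, RPN2 at −1.17 and PUP2 at −1.15. RPN9 was highest at 0.89, from 70.41 to 131.2 CPM, and RPN6 at 0.67 was the other past 1.5-fold higher. SCL1 was at −0.29, PUP1 at −0.05, PRE2 at −0.64, RPT6 at 0.20 and RPN1 at −0.36. RPN4 was at −0.14 and RPN14 at 0.44. In the alpha ring PRE10 was highest at −0.11, in the beta ring PRE1 was lowest at −0.86 and PRE7 highest at 0.51, and the ATPases ran from −0.32 for RPT2 to 0.44 for RPT3. All 8 check genes of membrane proteins were past 1.5-fold lower in this comparison, with a median of −2.70, and their part in the subunits' values was not tested. Since membrane and soluble RNA of a strain at 1 temperature come from the same growth conditions, they are not replicates of each other.

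**Figure D5:**
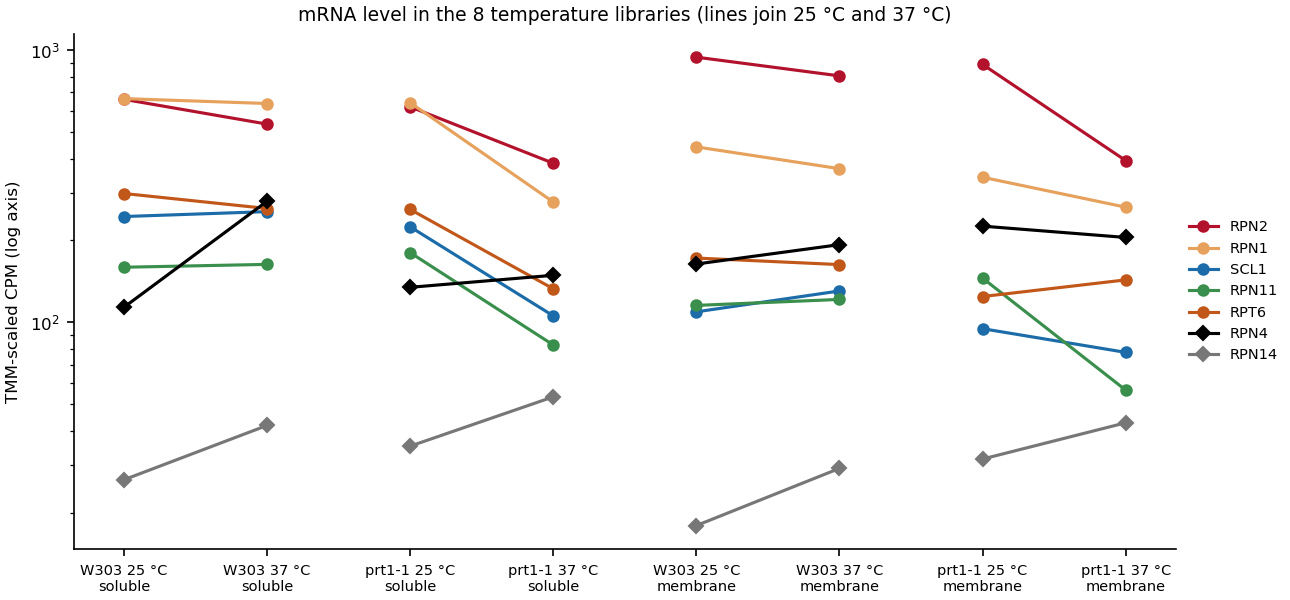
TMM-scaled CPM, on a log axis, of 5 subunits from different places in the proteasome and of RPN4 and RPN14 in the 8 temperature libraries, 1 library each, with lines from 25 °C to 37 °C. RPN4 goes from 113.8 to 278.9 in soluble RNA of W303 and from 134.6 to 149.0 in that of prt1-1, where the 5 subunits are all lower at 37 °C.

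RPN4 and RPN14 also differed from the subunits in the fractions. RPN4 footprints had 64.30 and 52.91 CPM in soluble, 60.05 and 52.40 in membrane and 65.29 and 63.57 in SRP72-bound polysomes. Its fractions overlapped, and it was not called, at −0.06 ± 0.11 on membranes (adjusted p = 0.644, edgeR) and 0.14 ± 0.11 in SRP72-bound polysomes (adjusted p = 0.287). With Cytonuclear scaling the latter was 0.57 and called (adjusted p = 0.0045). Its mRNA was at −0.28 on membranes and 0.23 in SRP72-bound material of the CHX lysate, and at 0.12 and 0.32 in the puromycin lysate. Membrane over soluble it was at 0.52 in W303 at 25 °C and −0.53 at 37 °C, and at 0.74 and 0.46 in prt1-1. In the CHX cultures its footprints were at −0.16 on membranes, −0.29 in SRP72-bound polysomes and −0.15 in all soluble ribosomes over polysomes.

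RPN14 was the rarest of the 35. Its footprints had 14.79 and 16.63 CPM in soluble, 12.72 and 13.91 in membrane and 12.02 and 12.64 in SRP72-bound polysomes, with no overlap between fractions and soluble. It was called lower by edgeR in both, at −0.24 ± 0.09 (adjusted p = 0.0463) and −0.35 ± 0.10 (adjusted p = 0.0122), and DESeq2 called neither (adjusted p = 0.247 and 0.0829). Leaving out replicate 2 of soluble polysomes ended both calls (0.255 and 0.0718), as did leaving out replicate 1 of the fraction (0.242 and 0.0861), and with Cytonuclear scaling the log2 fold changes were −0.07 and 0.09. In RNA it was at −0.52 on membranes and −0.41 in SRP72-bound material of the CHX lysate, at −0.32 and −0.01 in the puromycin lysate, and between −0.55 and −0.16 in membrane over soluble RNA of W303 and prt1-1. In CHX cultures it was at −0.12, −0.43 and −0.13 in the order given for RPN4.

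Genes around the proteasome did not all follow its subunits. Of 11 assembly chaperones and activators, 8 were called lower and 3 higher in membrane footprints, and the same counts held for SRP72-bound footprints, where the shares over all genes were 34.9% and 34.2% on membranes and 38.9% and 39.0% in SRP72-bound polysomes. POC4, a chaperone of the alpha ring, was lowest in both, at −0.70 and −1.03, and SPG5, a stationary-phase assembly factor, highest at 1.82 and 1.25. Of 16 ubiquitin, shuttle and processing factors 4 were lower and 4 higher on membranes, and 10 lower and 2 higher in SRP72-bound polysomes, so neither share on membranes was above that of all genes. The ends were CUZ1, a cofactor of the segregase CDC48, at −0.52 and the ubiquitin ligase UFD4 at 1.01 on membranes, and polyubiquitin UBI4 at −0.81 and the ubiquitin ligase UBR1 at 0.83 in SRP72-bound polysomes. Of 6 regulators linked to RPN4 none was lower, with 3 and 4 higher. UBR2, the ligase that marks the Rpn4 protein for degradation, was highest at 0.55 and 0.99, and the lowest were MUB1, its partner, at 0.00 and the stress regulator YAP1 at −0.19. Longer genes had higher fold changes, and these lists were not set against genes of like length. The part of length in their values was not tested.

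In the heat shift of W303 soluble mRNA, 3 of the 11 chaperones and activators were past 1.5-fold higher and 0 lower, from the activator BLM10 at −0.32 to SPG5 at 1.39. Of the 16 ubiquitin and shuttle factors 3 were higher and 0 lower, and with 23.1% of all genes higher both lists were near that share. These factors ran from the shuttle RAD23 at −0.36 to TMC1 at 1.93. Of the 6 regulators 1 was higher, the heat shock factor HSF1 at 0.67, and MUB1 was lowest at 0.01. In prt1-1 soluble mRNA, where 39.1% of all genes were higher and 25.7% lower, 4 chaperones were higher and 2 lower, also near these shares, from BLM10 at −1.40 to NAS2, a chaperone of the base, at 2.13. There 5 ubiquitin factors were higher and 5 lower, from the shuttle DSK2 at −1.62 to TMC1 at 2.34, and 1 regulator was lower, UBR2 at −1.43. All list counts are with TMM scaling, and no difference between lists was tested.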

How the data were processed

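Footprints of about 30 nt and poly(A) RNA fragments of about 40 nt were sequenced, per the labels' protocols. The authors deposited counts of reads for each ORF, not normalized per the file headers. The submitters' processing notes name cutadapt 1.3, CASAVA, TopHat, Bowtie and sacCer3. Treatment of reads with several matches and use of strand are not given in the sources used here. The authors' deposited log2 enrichments exceed the fitted log2 fold changes of the 35 genes by 0.10 (membrane) and by 0.15 to 0.16 (SRP72-bound). ORF lengths in codons are as deposited, an annotation and another kind of value than the counts. Of 30 samples, 24 libraries were used, and 6 monosome samples are not analysed here. By elimination, BY4741 RNA columns without a drug name stand for the CHX lysate. Dropped were 3 lines with no name.

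The 6 polysome libraries entered 1 model of 3 groups in edgeR 4.0.16 under R 4.3.3 (TMM, filterByExpr with minimum count 10 and total 15, quasi-likelihood test, adjusted p threshold 0.05); all 35 genes passed the filter. DESeq2 1.42.0 was an alternative. The fitting script was tested on simulated data. Single libraries were compared as log2 of CPM plus 0.5, which understates ratios of low genes, for genes with 10 counts in both, with a 1.5-fold threshold. Named were the highest and lowest gene of each role, genes that differ from most, RPN4, RPN14 and 7 genes followed throughout (SCL1, PUP1, PRE2, RPT6, RPN1, RPN11, SEM1). RefSeq (R64) matched all 35. Planned searches of promoters were not run, as no promoter sequence was used here. The members and lists were chosen with earlier results of these data known.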

Additional observations from a re-analysis of the deposited data

Results flagged for a closer look

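PRE6 of the alpha ring and RPN12 of the lid were above 0 in both W303 fractions and below 0 in both prt1-1 fractions, with every counting interval clear of 0. By sign alone, PRE5, PUP2, SCL1, RPN11 and RPN13 had the same pattern, with at least 1 W303 interval that reached 0. PRE6 had log2 ratios of 37 °C over 25 °C of 0.10 in soluble and 0.15 in membrane mRNA of W303, and of −0.36 and −0.52 in prt1-1. RPN12 had 0.20 and 0.19 in W303 and −0.35 and −0.59 in prt1-1. With 1 library per condition the difference between strains was not tested, and the 2 fractions of a strain are not replicates. These signs are on the TMM scale, and the subunit medians of the same comparisons change sign with other scalings.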

How the results depend on the processing

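RPN2 was called higher on membranes and in SRP72-bound polysomes under every alternative fit that was run. Library scaling moved the medians of the 35 genes most. For membrane polysomes the median log2 fold change was −0.309 with RLE, −0.311 by DESeq2 and −0.176 with Cytonuclear scaling, where 15 were lower. For SRP72-bound polysomes it was −0.608, −0.614 and −0.223, with 2, 2 and 3 called higher, 16 lower under Cytonuclear scaling, and RPN14 at 0.087. Leaving out 1 library gave 1 to 2 higher and medians of −0.404 to −0.292 on membranes, and medians of −0.708 to −0.64 in SRP72-bound polysomes. The lone library of a fraction was then assumed to vary like the others.

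With a replicate block 2 were higher and 26 lower on membranes, and 1 higher and 32 lower in SRP72-bound polysomes, as without it. The check of pairing gave correlations of 0.422, 0.0402 and 0.0654 between deviations of same-numbered libraries. Soluble and membrane libraries of 1 number thus deviated together and the pairs with SRP72-bound libraries hardly did; the labels do not say that a number marks a shared culture, and 2 numbers do not settle it.

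In the W303 heat shift the soluble median was 0.356 with CPM of library totals, −0.124 with RLE and 0.441 with Cytonuclear scaling, with 6, 1 and 9 genes past 1.5-fold higher, and 1 was past 2-fold. The membrane median was 0.119 with library totals and 0.199 with Cytonuclear scaling, with 2 higher under the latter and 0 past 2-fold. In prt1-1 the soluble median was −0.192, −0.84 and 0.057 in the same order and −0.749 with a pseudocount of 5. There 2, 0 and 2 were higher, 4 were lower with library totals and 1 with Cytonuclear scaling, and past 2-fold 0 were higher and 9 lower. The prt1-1 membrane median was 0.193, −0.254 and −0.098, with 10 higher and 4 lower under library totals, 5 higher under Cytonuclear scaling, and 0 higher and 4 lower past 2-fold. The shifts between scalings came with the scaling itself, which moved the median over all genes as well. The pseudocount and the 2-fold threshold are other choices. Counts of all genes past 1.5-fold moved too, as given above for soluble mRNA of W303 and both fractions of prt1-1. In soluble mRNA of prt1-1, 3152, 2041 and 3564 of 5498 genes were higher in the same order. In W303 membrane mRNA 1394 of 5378 were higher with Cytonuclear scaling. Past 2-fold, 609 of 5483 genes were higher and 404 lower in W303 soluble mRNA, and 300 and 231 of 5378 in membrane mRNA. In prt1-1 these counts were 1512 and 893 of 5498 in soluble and 921 and 934 of 5390 in membrane mRNA. The median of the 35 relative to all genes moved by at most 0.01 between scalings. That follows from the method, since scaling moves all genes by nearly the same amount. With a pseudocount of 5 it was −0.95 in soluble mRNA of prt1-1, against −1.01 in the main setting.

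Single libraries have no replicate check, and counting intervals leave out variation between cultures. The RNA of W303 membranes at 25 °C was shallowest and limits RPN14 most.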
